A study of Mus musculus with 6 samples.

Results

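The 29 genes described here are markers and regulators of the neural lineage, from the neural plate to the young neuron, read in mouse embryonic stem cells after knockdown of the chromatin remodeller Chd1. They were given as a list of symbols, and every probe of the bead array annotated with a listed symbol was taken: 28 genes had a probe, 56 probes in all among the 45281 on the array, and Pou3f2 was not analysed here. A probe counted as detected when its detection p-value was under 0.05 on at least 3 of the 6 arrays. This held for 14 probes of 11 genes, against 16018 probes and 9507 named genes over the whole array. Control cells (n = 3) were compared with cells electroporated with a pHYPER short hairpin RNA (shRNA) vector against Chd1 (n = 3), 1 array per sample. Both groups grew on mitomycin C-inactivated embryonic fibroblasts with 15% serum and leukemia inhibitory factor (LIF), and both were selected with puromycin for 48 h, begun 24 h after electroporation. The labels give neither the cell line, nor the content of the control vector, nor whether each sample was its own culture. The p-values below therefore describe these 6 samples, whose spread may be technical.

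Embryonic stem cells can form neural tissue when LIF, serum factors and BMP signals are withdrawn. Transcription factors of the SoxB1 group (Sox1, Sox2, Sox3) then hold cells in a dividing progenitor state, and Notch ligands such as Dll1 signal to neighbouring cells through the Hes repressors. Proneural factors of the basic helix-loop-helix family (Neurog1, Neurog2, Neurod1) drive exit from the cycle and the expression of neuronal tubulins, stathmins and neurofilaments.

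Values are normalized log2 intensities, and a difference is Chd1 shRNA minus control on that scale. Values of single arrays are given for replicates 1, 2 and 3 of each group, in that order. Of 20 pluripotency markers, 19 were detected. The Chd1 probe ILMN_1258834, which the annotation ties to a cDNA clone, averaged 7.83 ± 0.96 (SD, n = 3) without the hairpin and 5.75 ± 0.39 (SD, n = 3) with it. The groups did not overlap, with an adjusted p of 0.21 by limma and an exact two-sided permutation p of 0.1. Between 34.6% and 38.4% of all probes were detected on an array, and each Chd1 shRNA array detected more than each control array. Of 28 fibroblast markers, 20 were tested, and 19 of these had higher values in Chd1 shRNA arrays, with a median difference of 0.73. Their mean log2 intensity was 7.41, 7.26 and 8.40 on the control arrays, against 7.79, 8.73 and 8.82 after Chd1 shRNA. Control replicate 3 thus lay among the Chd1 shRNA arrays, and Chd1 shRNA replicate 1 lay nearest to the other controls. The fibroblast collagen genes Col1a2 and Col5a2 and the matrix gene Postn were detected on no array. In bulk RNA, fewer cells of a type and less RNA per cell cannot be told apart. Per the labels the 6 arrays share 1 chip, with each group on adjoining positions, and an effect of position cannot be told apart from that of the knockdown.

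Of the 28 genes with a probe, 11 were detected, beside 9507 of all 19057 named genes on the array. The 17 genes with a probe but no detection were the SoxB1 genes Sox1 and Sox3, the regional and progenitor factors Pax6, Pax3, Zic1, Dlx1 and Olig2, the Notch effector Hes5, the proneural genes Neurog1, Neurog2 and Neurod1, the RNA-binding protein gene Msi1, and the neuronal genes Tubb3, Dcx, Gap43, Nefl and Nefm. Their probes, with the undetected probes of the other genes, made 42 probes, which gave 15 detections in 252 readings. That share, 5.95%, is a description, since these probes were chosen for having few detections. The 15 detections numbered 3, 1 and 2 on the control arrays, against 0, 5 and 4 after Chd1 shRNA. Sox1, detected on no array, read 4.81, 4.67 and 4.65 on the control arrays, against 4.32, 4.28 and 4.41 after Chd1 shRNA. Neither group of Sox1 readings passed the detection threshold on any array. Just inside the rule lay Dll1, detected on 3 arrays, and just outside lay Sox3 and Dcx, each with a probe detected on 2. A reading at background does not show that a gene is silent: probes of Rest and Rbpj, regulators known to be expressed in embryonic stem cells, were also not detected.

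**Figure D1:**
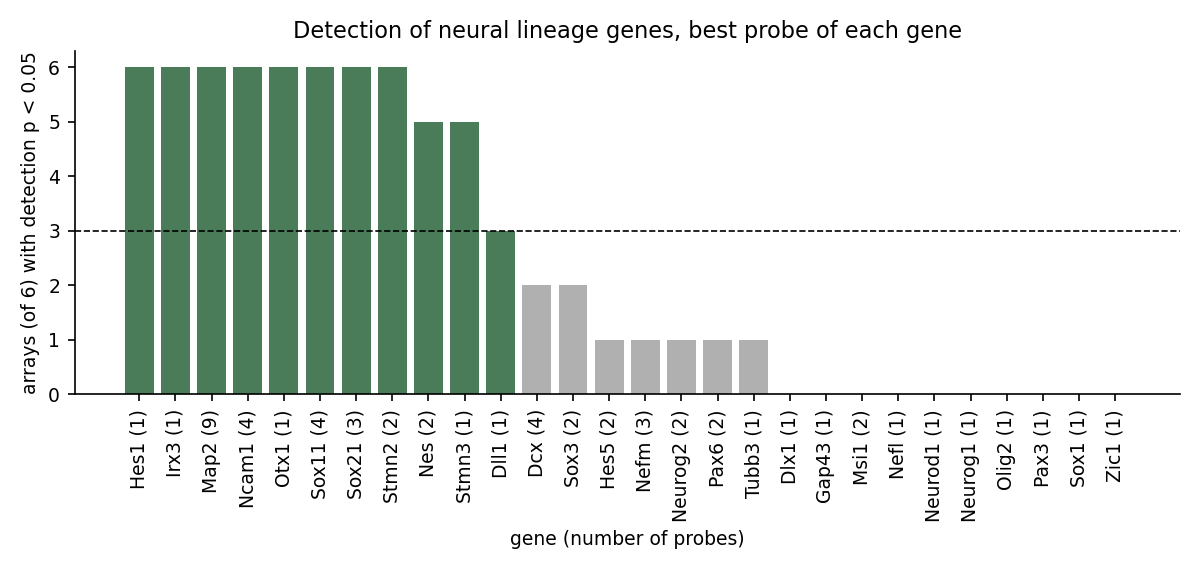
The height of each bar is the number of arrays, of 6, on which the best probe of a gene had a detection p-value under 0.05, with the number of probes of the gene in brackets. Green bars are the 11 genes at or above the dashed line at 3 arrays, and grey bars or empty places are the 17 others.

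None of the 14 detected probes passed an adjusted p of 0.05 by limma, as none of all 16018 probes did (0% called, smallest adjusted p 0.0983). Counting 1 probe per gene, the one with the highest mean, 3 of the 11 genes had an unadjusted p under 0.05 with lower values in Chd1 shRNA arrays (Sox21, Stmn2 and Ncam1), against 6.22% of all 11600 genes and unnamed probes tested, and 0 had one with higher values, against 4.59%. The groups did not overlap for 2 genes with lower values (Stmn2 and Ncam1), where 9.18% of all did not overlap with lower values, and for 0 with higher values, where 6.87% did. Differences ran from -1.17 (Sox21) to 0.66 (Nes), with 6 genes below and 5 above 0. Their median was -0.12 beside 0.00 over all genes tested. Scaling arrays to a common median in place of quantile normalization moved the median of all genes to 0.21 and that of the 11 genes to 0.19, with 1 unadjusted call lower and 3 higher. No direction is therefore given for the neural genes as a group.

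**Figure D2:**
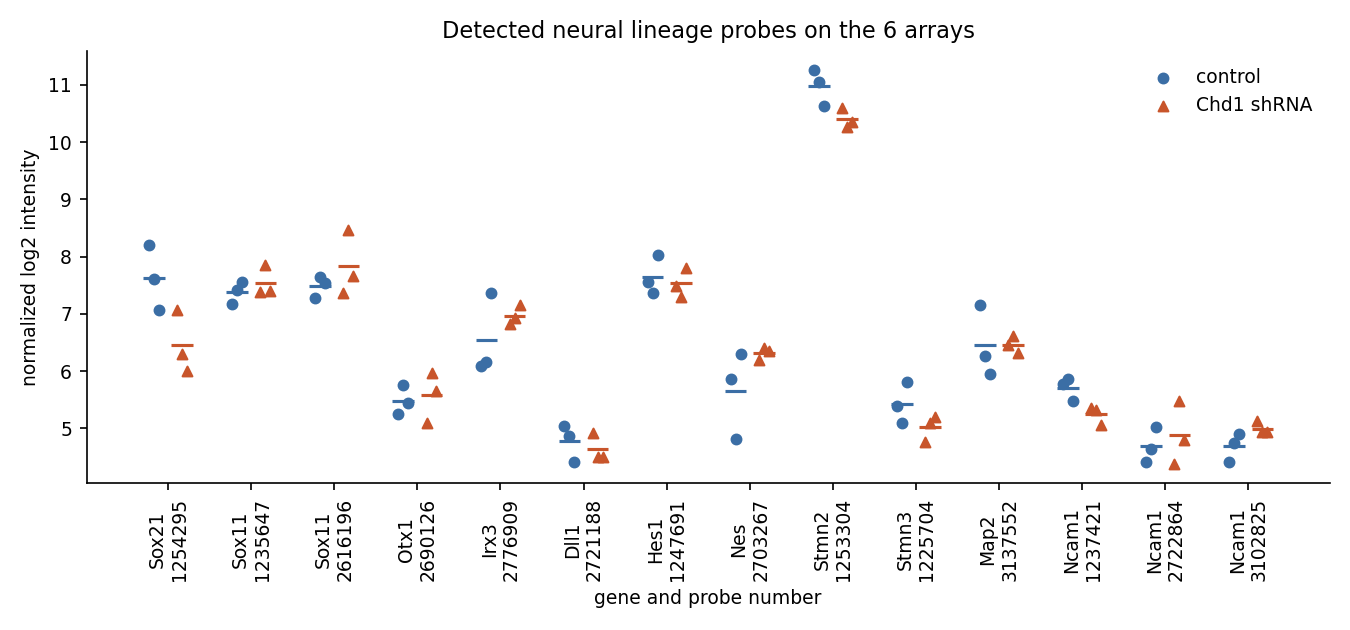
Normalized log2 intensity (vertical axis) of the 14 detected probes on each array, by gene and probe number, with control arrays as blue circles, Chd1 shRNA arrays as orange triangles and the mean of 3 arrays as a bar. The groups separate for the Stmn2 probe, and for 2 Ncam1 probes in opposite directions.

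Of the transcription factor genes, Sox21 had the largest difference. Sox21 is a SoxB2 protein, which binds the motif of the SoxB1 factors and represses their targets. Its probe ILMN_1254295 read 8.20, 7.62 and 7.07 on the control arrays, against 7.07, 6.30 and 6.00 after Chd1 shRNA. The lowest control array and the highest Chd1 shRNA array read the same to 2 decimals, and the other Chd1 shRNA arrays lay below every control. The difference was -1.17 (SE 0.34, n = 3 per group, 95% interval -1.95 to -0.39), a level of 44.4% of control, with an adjusted p of 0.325 by limma over all detected probes. An exact two-sided permutation test gave p = 0.2, where 0.1 is the smallest that 3 arrays against 3 allow. The difference was -0.55 with the fibroblast signal of each array as a covariate and -0.70 in the authors' normalized values. The other probes of Sox21, ILMN_3163306 and ILMN_2721489, were not detected.

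The start of Sox21 is shown because its difference was the largest of the 11 genes, and that of Hes5 because it is a classical Notch target that was not detected. Both windows run from 250 bases before to 50 bases after the annotated start in RefSeq on GRCm38.p6, Sox21 at chr14:118236981-118237280 on the minus strand and Hes5 at chr4:154960673-154960972 on the plus strand. Capitals mark CACNAG, the N box bound by Hes repressors, in Sox21, and TGGGAA, the core bound by the Notch effector RBPJ, in Hes5, each searched on both strands.
Sox21: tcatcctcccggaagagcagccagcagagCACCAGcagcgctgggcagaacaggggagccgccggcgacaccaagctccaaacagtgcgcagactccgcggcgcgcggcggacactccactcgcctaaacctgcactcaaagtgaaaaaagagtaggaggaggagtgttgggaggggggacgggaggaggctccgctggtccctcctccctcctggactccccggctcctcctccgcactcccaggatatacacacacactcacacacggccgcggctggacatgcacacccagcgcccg
Hes5: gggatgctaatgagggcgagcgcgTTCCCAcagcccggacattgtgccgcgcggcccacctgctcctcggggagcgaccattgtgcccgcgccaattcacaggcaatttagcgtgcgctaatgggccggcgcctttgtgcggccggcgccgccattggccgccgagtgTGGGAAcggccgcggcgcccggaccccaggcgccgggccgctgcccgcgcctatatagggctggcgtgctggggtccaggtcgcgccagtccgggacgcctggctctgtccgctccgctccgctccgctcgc
The Sox21 window held 1 N box match and 0 RBPJ core matches, and the Hes5 window held 2 RBPJ core matches, 1 per strand. An N box match occurred in 42.5% and an RBPJ core match in 25.6% of all 32851 windows of this length. Of the 22 windows of 19 members, 3 held an RBPJ core, those of Hes5, Sox1 and Irx3. The remaining 10 members are named only.

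The members with a window were mostly rich in CpG whether or not they were detected. A ratio of observed to expected CpG of at least 0.6 was reached by 6 of 7 detected genes and by 10 of the other 12 (Pou3f2 included), where 35.8% of all windows reach it. A gene with 2 windows counts by the higher ratio. Sox21 had 0.69, Nes 0.70 and Sox11 0.82, beside 1.07 for Sox1 and 1.04 for Hes5, which were not detected. The exceptions were Stmn3 with 0.35, Neurog2 with 0.57 and Dcx with 0.22.

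The remaining detected transcription factors had overlapping groups. Sox11, a SoxC factor that promotes neuronal differentiation, read 7.28, 7.65 and 7.53 on the control arrays, against 7.36, 8.46 and 7.67 after Chd1 shRNA on probe ILMN_2616196. The difference was 0.34 (95% interval -0.29 to 0.98) there and 0.16 (-0.30 to 0.62) on ILMN_1235647, and Chd1 shRNA replicate 2 was the highest array on both. Otx1, a homeodomain factor of the forebrain and midbrain, read 5.25, 5.75 and 5.44 on the control arrays, against 5.09, 5.97 and 5.66 after Chd1 shRNA. Its difference of 0.09 had an interval of -0.48 to 0.67. Irx3, a homeodomain factor that patterns the neural tube and is also found in limb and fat tissue, read 6.09, 6.16 and 7.37 on the control arrays, against 6.83, 6.93 and 7.15 after Chd1 shRNA. Control replicate 3 was the highest array, and the difference of 0.43 (-0.31 to 1.17) became -0.11 with the fibroblast signal as a covariate and 0.85 without control replicate 3.

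Of the Notch members, the ligand gene Dll1 lay near background. It read 5.05, 4.86 and 4.41 on the control arrays, against 4.92, 4.49 and 4.50 after Chd1 shRNA and was detected on 2 control arrays and 1 Chd1 shRNA array. The difference was -0.13 (95% interval -0.64 to 0.38). Hes1, a repressor that Notch and other signals induce in embryonic stem cells, was detected on all 6 arrays, at 7.55, 7.36 and 8.03 on the control arrays, against 7.49, 7.30 and 7.81 after Chd1 shRNA. Replicate 3 was the highest array of each group, and the difference was -0.12 (-0.64 to 0.40). That difference became 0.07 without control replicate 3 and -0.37 with the fibroblast signal as a covariate. With median scaling it was 0.19, where the median of all genes was 0.21.

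Nes encodes nestin, an intermediate filament of neural progenitors that cultured fibroblasts and muscle precursors also express. Its probe ILMN_2703267 read 5.86, 4.81 and 6.30 on the control arrays, against 6.19, 6.40 and 6.34 after Chd1 shRNA. Control replicate 2 was the lowest array and was not detected, and control replicate 3 lay within the range of the Chd1 shRNA arrays. The difference was 0.66 (SE 0.34, 95% interval -0.11 to 1.43), with an adjusted p of 0.526 by limma. It was 0.19 with the fibroblast signal as a covariate, 0.24 without control replicate 2 and 1.00 without control replicate 3. A second probe, ILMN_2904590, was detected on 1 array.

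Among the neuronal genes, Stmn2 had lower values on every Chd1 shRNA array. Stmn2 (SCG10) is a stathmin that destabilizes microtubules in growth cones. Its probe ILMN_1253304 read 11.25, 11.06 and 10.63 on the control arrays, against 10.60, 10.26 and 10.35 after Chd1 shRNA. The lowest control array, replicate 3, and the highest Chd1 shRNA array, replicate 1, lay close together at 10.63 and 10.60, so the groups only just separated. The difference was -0.58 (SE 0.21, n = 3 per group, 95% interval -1.06 to -0.10), a level of 66.9% of control, with an adjusted p of 0.414 by limma and an exact two-sided permutation p of 0.1. It was -0.29 with the fibroblast signal as a covariate. The other Stmn2 probe, ILMN_1228563, which the annotation ties to a cDNA clone, was detected on no array.

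Stmn3, a stathmin of the same family, read 5.39, 5.09 and 5.81 on the control arrays, against 4.76, 5.09 and 5.20 after Chd1 shRNA. The groups overlapped, and the difference was -0.41 (95% interval -0.93 to 0.11), and -0.77 with the fibroblast signal as a covariate. Map2 encodes a microtubule-associated protein of dendrites, and 1 of its 9 probes, ILMN_3137552, was detected. It read 7.15, 6.26 and 5.94 on the control arrays, against 6.46, 6.62 and 6.31 after Chd1 shRNA. The Chd1 shRNA arrays lay inside the range of the controls, and the difference was 0.01 (-0.66 to 0.68).

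Probes of Ncam1, a neural cell adhesion molecule made in several splice forms, disagreed. ILMN_1237421 read 5.78, 5.87 and 5.48 on the control arrays, against 5.36, 5.31 and 5.06 after Chd1 shRNA, with all 3 Chd1 shRNA arrays lower. Its difference was -0.47 (SE 0.19, 95% interval -0.89 to -0.04), with an adjusted p of 0.450 by limma, and was -0.27 with the fibroblast signal as a covariate and -0.16 without background correction. ILMN_3102825, tied to the same reference mRNA, read 4.41, 4.74 and 4.90 on the control arrays, against 5.13, 4.93 and 4.93 after Chd1 shRNA, with all 3 Chd1 shRNA arrays higher and a difference of 0.31 (-0.12 to 0.75). That probe was detected on 1 control array and 3 Chd1 shRNA arrays. ILMN_2722864 gave 0.20 with overlapping groups, and ILMN_1254093 was detected on no array. The splice forms that each probe detects were not analysed here, and no direction is given for the gene.

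**Figure D3:**
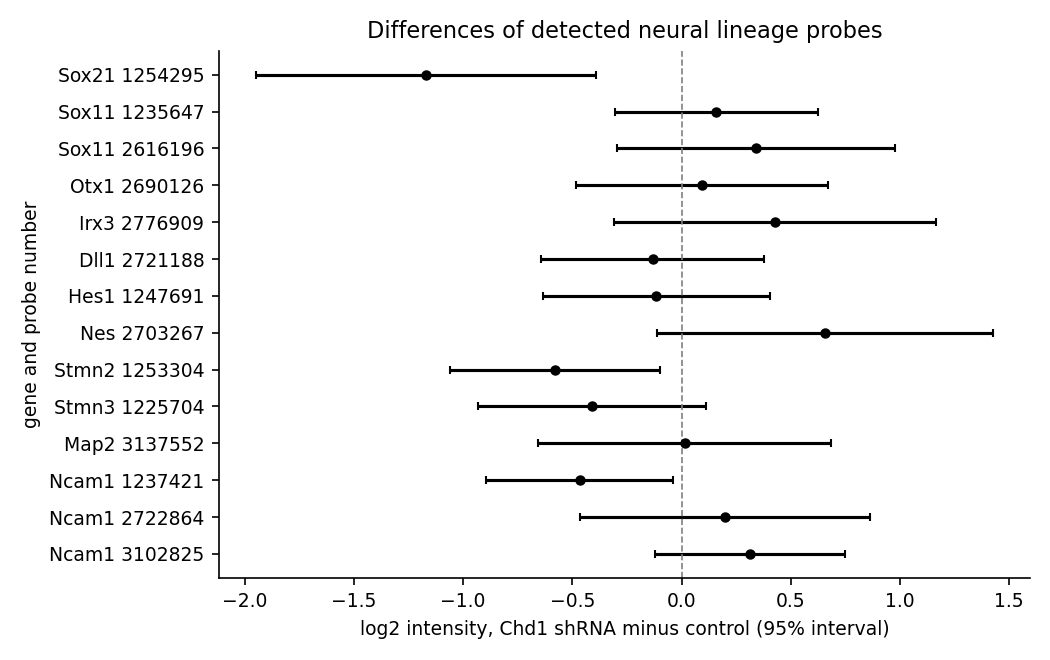
Difference in log2 intensity, Chd1 shRNA minus control (horizontal axis), for the 14 detected probes, with 95% intervals from the limma fit that are not adjusted for the number of probes. The intervals of Sox21, Stmn2 and Ncam1 probe ILMN_1237421 lie below 0, and those of the other 11 probes span 0.

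The array values of these genes can be set beside those of the marker lists. Relative to the mean of 6 arrays, the median fibroblast marker stood at -0.58, -0.74 and 0.32 on the control arrays, against -0.26, 0.57 and 0.82 after Chd1 shRNA. The median pluripotency marker stood at 0.31, 0.12 and 0.05 on the control arrays, against 0.15, -0.36 and -0.20 after Chd1 shRNA. Sox21 and Stmn2 were highest on control replicate 1, as were Dll1, Map2 and the median pluripotency marker. The other arrays matched less. On Chd1 shRNA replicate 1 the pluripotency median lay above control replicates 2 and 3, and Stmn2 lay below every control. Sox21 was lowest on Chd1 shRNA replicate 3, and the pluripotency median on replicate 2. Nes and Irx3 were lowest on control replicates 1 and 2, where the fibroblast markers were lowest too. The part of feeder RNA in these differences was not tested. Values with the fibroblast signal as a covariate, given for some genes, cannot measure it, because that signal differed between the groups as well. With the covariate some differences shrank or turned, and those of Stmn3 and Hes1 grew.

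**Figure D4:**
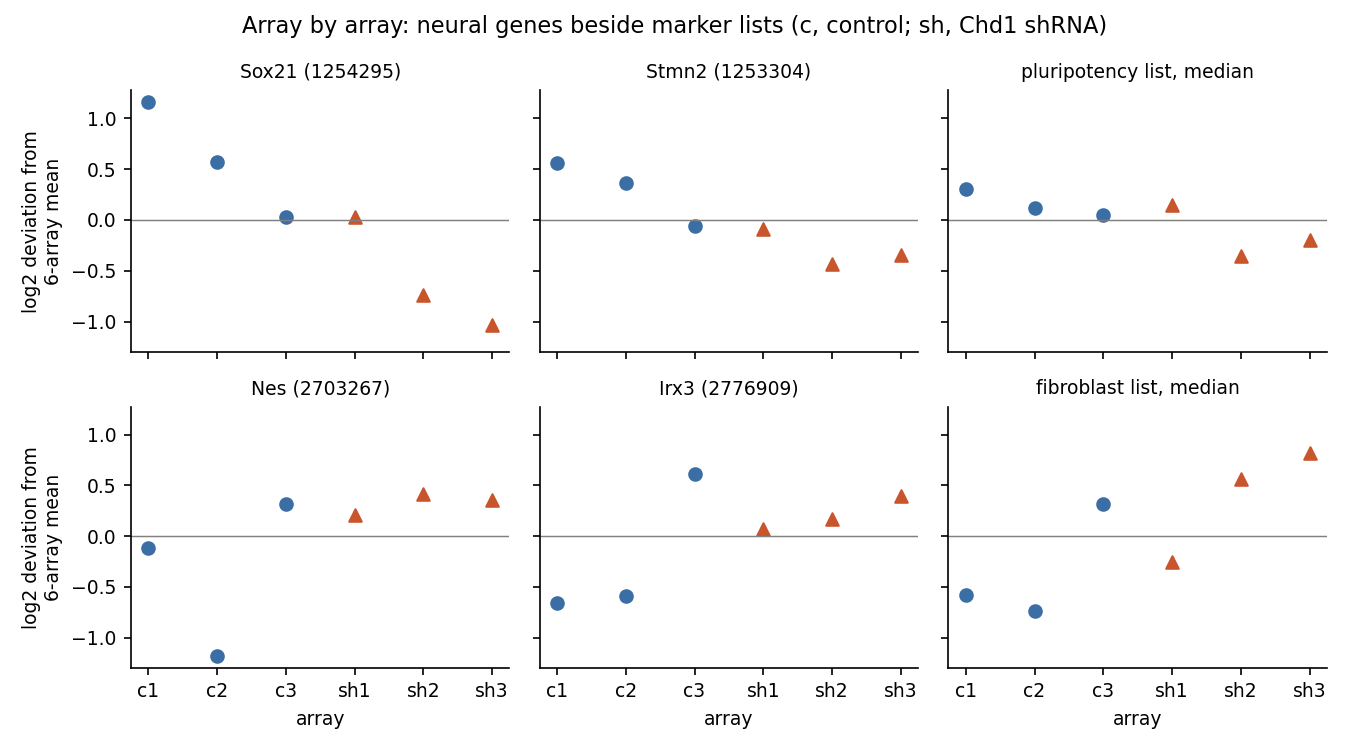
Deviation of log2 intensity from the mean of the 6 arrays (vertical axis) on each array, for the probes of Sox21, Stmn2, Nes and Irx3 and for the median of the pluripotency and fibroblast lists, with control arrays (c1 to c3) as blue circles and Chd1 shRNA arrays (sh1 to sh3) as orange triangles. Sox21 is highest on control replicate 1 and lowest on Chd1 shRNA replicate 3, and the fibroblast median is above 0 on control replicate 3 and on Chd1 shRNA replicates 2 and 3.

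Other genes of the neural programme were read from lists written for this comparison, with earlier results of these data known. Their counts beside the share over all genes are therefore a description. Of 30 neuronal cytoskeleton, growth cone and synapse genes, 19 were tested, 17 of them with lower values in Chd1 shRNA arrays (89.5%, against 49.8% of all genes tested). The pluripotency markers had the same tally, 17 of 19 with lower values and 5 with an unadjusted p under 0.05, so it is not particular to neuronal genes. The median difference of the cytoskeleton list was -0.39, and -0.18 with median scaling, where the median of all genes was 0.21. Unadjusted p-values under 0.05 belonged to 5 of its 19 genes with lower values, where 6.22% of all genes tested had one, and to 0 with higher values, where 4.59% had one, and 0 passed the adjusted threshold. The list's median on an array, relative to the mean of 6 arrays, was 0.31, 0.03 and 0.20 on the control arrays, against -0.21, -0.23 and -0.21 after Chd1 shRNA, so every Chd1 shRNA array lay below every control. With the fibroblast signal as a covariate the median was -0.33.

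Mapt, which encodes the microtubule-binding protein tau, read 7.57, 7.92 and 7.40 on the control arrays, against 6.79, 6.78 and 6.05 after Chd1 shRNA. The groups did not overlap, and the difference was -1.09 (SE 0.25, adjusted p = 0.240 by limma), a level of 46.9% of control. Dpysl4, of the collapsin response mediator family of axon guidance, had a difference of -0.68 (SE 0.23). The remaining unadjusted calls, named after their values were seen, were Crmp1 of the same family with -0.68, the beta-tubulin gene Tubb2b with -0.62 and the vesicle fusion gene Vamp2 with -0.47. Of the 19 genes tested, 5 had lower values without overlap, where 9.18% of all genes tested did. They were the same 5 genes as the unadjusted calls, so the lack of overlap adds little to those calls. With the fibroblast signal as a covariate these 5 genes had values from -0.80 (Mapt) to -0.56 (Crmp1 and Vamp2).

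Further neural regulators gave values on both sides of 0. Of 30 other progenitor regulators, 12 were tested, 5 with lower and 7 with higher values and a median of 0.30. That median was 0.02 with the fibroblast signal as a covariate, 0.01 with no detection filter and 0.05 without Chd1 shRNA replicate 2. With median scaling it was 0.58, where the median of all genes was 0.21. The homeodomain gene Otx2 had a difference of -0.91 (SE 0.77), with its lowest control array, replicate 3, at 6.11 and its highest, replicate 1, at 8.87, and 0.64 with the fibroblast signal as a covariate. Sox2, which stem cells and neural progenitors share, read 9.05, 8.90 and 8.46 on the control arrays, against 8.75, 7.73 and 7.57 after Chd1 shRNA, a difference of -0.79 (SE 0.32, adjusted p = 0.450 by limma). Of 22 other proneural and neuronal regulators, 5 were tested, with a median of 0.02. The RNA-binding protein gene Elavl3 had -0.81 (SE 0.46), and 0.0067 with that covariate, and Rbfox3, which encodes the neuronal antigen NeuN, had -0.58 (SE 0.24).

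The wider Notch pathway likewise held no adjusted call. Of 28 other pathway genes, 15 were tested, 6 with lower and 9 with higher values and a median of 0.14. Over the alternatives that median ran from -0.04 without control replicate 2 to 0.34 with median scaling, where the median of all genes was 0.21. It was -0.02 with the fibroblast signal as a covariate and -0.01 without Chd1 shRNA replicate 3. Dtx1, a ubiquitin ligase that modulates Notch, read 6.60, 6.38 and 6.35 on the control arrays, against 6.00, 4.66 and 5.41 after Chd1 shRNA, a difference of -1.08 (SE 0.31, adjusted p = 0.311 by limma). The receptor gene Notch4, best known in blood vessels, read 9.33, 8.88 and 8.88 on the control arrays, against 8.75, 7.89 and 7.75 after Chd1 shRNA, a difference of -0.90 (SE 0.28, adjusted p = 0.374 by limma). In both the groups did not overlap. Of the 15 genes, 3 had lower values without overlap, where 9.18% of all genes tested did, and 0 had higher values without overlap, where 6.87% did. The other of these genes, Rfng, named after its value was seen, had a difference of only -0.16. The gamma-secretase gene Psen2, named after its value was seen, had 0.57 (SE 0.23) with an unadjusted p under 0.05. The differences of Dtx1 and Notch4 were past an unadjusted 0.05 as well. That made 2 of 15 genes with lower values, where 6.22% of all genes tested had one, and 1 with higher values, where 4.59% did.

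Genes of the REST complex, which represses neuronal genes outside neurons, included Rcor2 with -0.48 (SE 0.23) and Sin3a with -0.44 (SE 0.23). The median of the 7 tested was -0.15, and 0.13 with median scaling, where the median of all genes was 0.21. Of 15 glial and neural crest markers, 7 were tested, with a median of 0.05. The neural crest factor Snai2, which fibroblasts also express, had 0.65 (SE 0.48), and -0.29 with the fibroblast signal as a covariate, and Cspg4 had 0.22 (SE 0.26). Gfap, S100b, Mog and Aqp4, markers of mature glia, were detected on no array. Other glial markers of the list were detected, Slc1a3 on 6 arrays, Mbp on 4, and Aldh1l1, Cspg4 and Sox10 on 3 each. In the marker lists used as checks, Dcn and Twist2 had the largest fibroblast differences, 1.45 (SE 0.49) and 1.30 (SE 0.56), and Tcl1 and Sox2 the largest pluripotency differences, with -1.19 (SE 0.25) for Tcl1, and the median of the 19 pluripotency markers was -0.34, and -0.13 with the fibroblast signal as a covariate.

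**Figure D5:**
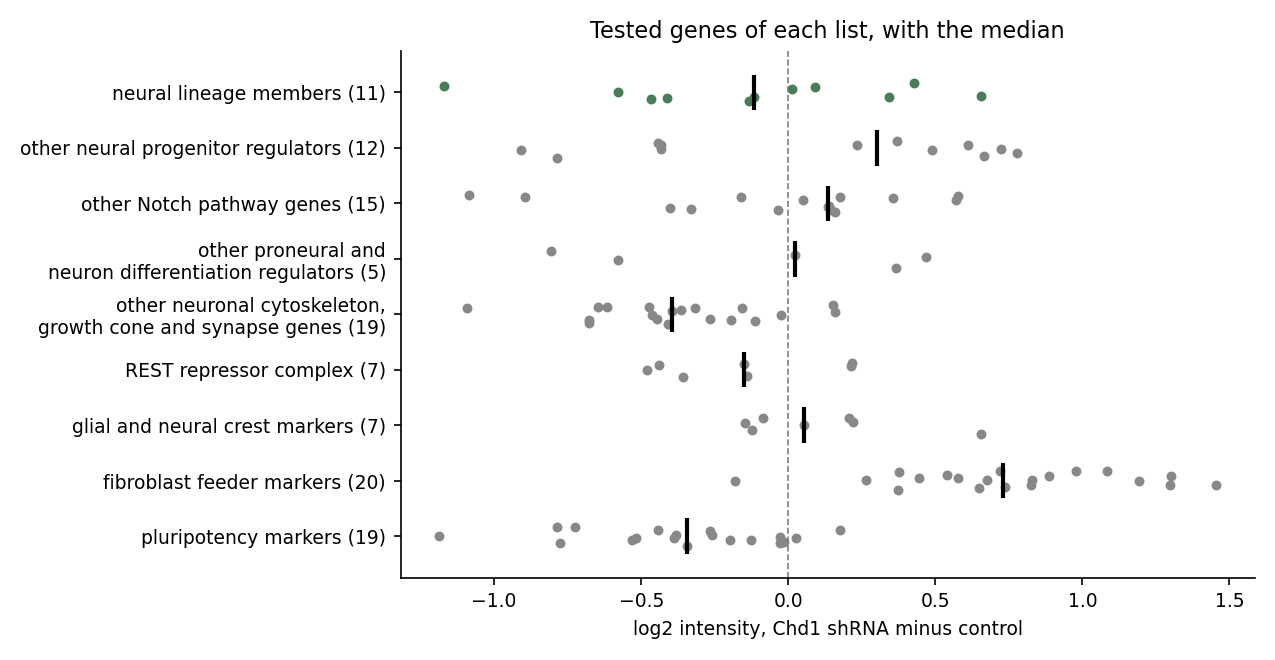
Difference in log2 intensity, Chd1 shRNA minus control (horizontal axis), for each tested gene of the neural lineage list (green) and of 8 other lists (grey), with the number of genes in brackets and the median as a black bar. The neuronal cytoskeleton and pluripotency lists each have 17 of 19 points below 0, and the fibroblast list has 19 of 20 above 0.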

How the data were processed

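Total RNA of 3 control and 3 Chd1 shRNA samples was read on 1 bead array each. Groups follow the transfection label, and replicates were numbered in accession order, which pairs none. The deposited table gives linear intensities that were not background-subtracted, summarised with GenomeStudio per the submitters' processing notes. It also gives a detection p-value per probe and array, per the file headers. The median intensity of an array lay between 96.6 and 114.4. A second deposited table holds intensities normalized by the authors, by a method not given in the sources used here, and served as an alternative. Its differences nearly equalled those of quantile normalization without background correction (Sox21 -0.7012 and -0.7013), so these alternatives are not separate checks.

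Background was corrected by normexp with detection p-values (offset 16), followed by quantile normalization and log2 (the neqc function, limma 3.58.1, R 4.3.3). For dim probes such as those of Stmn3 and Nes, differences were larger than without background correction (-0.41 against -0.13, and 0.66 against 0.25). GEO's platform annotation gave 1 gene for 34885 probes, several for 18 and none for 10378, and 0 symbols changed through RefSeq. Probes detected on at least 3 arrays were fitted with lmFit and eBayes, with Benjamini-Hochberg adjustment over all 16018. Counts by gene use the probe with the highest mean, and 2093 unnamed probes stand for themselves. The fit was tested on simulated data.

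All 29 members are named, and from each other list the 2 tested genes with the largest absolute difference. Members and lists were chosen with earlier results of these data known. As the fibroblast covariate, the 20 tested fibroblast markers were averaged on each array (log2). Alternatives were an offset of 50, no background correction, median and 75th percentile scaling, the authors' table, no detection filter, detection on all 6 arrays, 1 probe per gene, trend with robust variance, array weights, the covariate, and leaving out each array.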

Additional observations from a re-analysis of the deposited data

How the results depend on the processing

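No member passed an adjusted p of 0.05 under any of the 17 alternatives run, and the smallest adjusted p of a member was 0.102. Of 224 values of member probes under the alternatives, 209 kept their sign. Part of that count was fixed in advance. No detection filter, detection on all 6 arrays, 1 probe per gene and trend with robust variance leave the difference of a probe unchanged. The count of members with lower values at an unadjusted p under 0.05, 3 as reported, was 1 with median scaling and 1 with the fibroblast covariate, and it ran from 1 to 3 when an array was left out. It was 1 without control replicate 1, Chd1 shRNA replicate 2 or Chd1 shRNA replicate 3. The count with higher values, 0 as reported, was 3 with median scaling and 1 with array weights, and ran from 0 to 2 when an array was left out, with 2 without control replicate 3. The number of detected members ran from 10 to 11 over left-out arrays and was 8 with detection on all 6 arrays. The median difference of the members was -0.0374 without background correction, -0.0373 in the authors' table, 0.19 with median scaling, -0.0228 with 75th percentile scaling and 0.0117 with no detection filter, and it ran from -0.229 to -0.0372 over left-out arrays.

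Some signs turned, of small differences and, with the fibroblast covariate, of larger ones. Map2 had -0.0065 with an offset of 50, -0.0141 without background correction and -0.0140 in the authors' table. Over left-out arrays it ran from -0.242 to 0.362, below 0 without control replicate 2, control replicate 3 or Chd1 shRNA replicate 2. Otx1 ran from -0.111 to 0.333, below 0 without control replicate 1 or Chd1 shRNA replicate 2. Hes1 ran from -0.257 to 0.0739, above 0 without control replicate 3, and had 0.186 with median scaling, and Rfng, a Notch glycosyltransferase gene with -0.16 as reported, had 0.0583 with median scaling. With the fibroblast covariate, Dll1 had 0.21, Irx3 -0.11, Otx1 -0.11, Sox11 probe ILMN_1235647 -9e-04, Ncam1 probe ILMN_2722864 -0.23, Otx2 0.64, Elavl3 0.0067 and Snai2 -0.29. The causes were not tested. No paired analysis was possible because the labels carry no replicate numbers shared by the groups. With 3 arrays per group, an exact permutation p cannot fall below 0.1, and probes near background, such as Dll1, can show little change.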
